A study of Saccharomyces cerevisiae with 24 samples.

Results

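The genes described here are 60 ribosome biogenesis genes of the budding yeast Saccharomyces cerevisiae, taken by name from a list of assembly factors with names such as NOP, UTP, RRP, NSA, DBP and ENP. All 60 were found among the 7121 gene rows of the deposited table, and all 60 passed the filter on low values that left 6449 genes for testing. The names came with earlier results of these data in view, but no measured value entered the rule.

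Ribosome biogenesis is the making of ribosomal subunits from ribosomal RNA (rRNA) and ribosomal proteins by assembly factors that are not themselves part of the finished ribosome. In the nucleolus RNA polymerase I transcribes a long precursor that the small-subunit processome, with its U3 snoRNA, folds and cleaves, while other factors build the large-subunit precursor before both leave for the cytoplasm. In yeast the genes of these factors are known as a regulon (Ribi) that is transcribed strongly in growing cells and turned down when nutrients run out, through the TOR and protein kinase A pathways. Many of their promoters carry the PAC element, bound by the repressors Tod6 and Dot6, and the RRPE element, bound by the repressor Stb3.

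RNA was measured by poly(A)-selected, directional RNA sequencing in 24 libraries. There were 8 groups of 3 biological replicates, made of 4 genotypes that were each sampled in starvation, after 48 h in culture, and in log phase: nam8D (strain JPY28H5), which lacks the U1 snRNP protein Nam8, hsh49::Q24P (JPY2863), a point mutant of the U2 snRNP protein Hsh49, mud1D (JPY28A8), which lacks the U1 snRNP protein Mud1, and WT (JPY10H3). All strains have the BY background, each genotype was represented by 1 strain, all libraries carry the same batch name, and all cultures grew in synthetic medium with 2% glucose, histidine, leucine, uracil and lysine. The design also names a tor1 deletion, which is not analysed here. Values are TPM (transcript abundance scaled for gene length to a fixed library total), so the sequencing depth behind each value is unknown. In such bulk RNA, fewer cells with a transcript and less of it per cell cannot be told apart.

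Differences are on the log2(TPM + 1) scale with their standard error (SE), from limma with a Benjamini-Hochberg adjustment over the 6449 genes. A gene passed at an adjusted p under 0.05, and was called changed if it passed and differed by at least 1 on that scale, a doubling or halving. Counts at an unadjusted p under 0.05 are given without the share of all genes, so they alone do not set the members apart. The p-values measure the spread between the labelled biological replicates, pooled over all 8 groups and not that of the groups compared alone.

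The deleted genes followed the labels. NAM8 was at most 0.258 TPM in every nam8D library, against 45.3 ± 1.67 TPM in starved WT (SD, n = 3), and MUD1 was at most 4.74 TPM in every mud1D library, against 69.2 ± 4.5 TPM in starved WT. The level of HSH49 checks nothing in a point mutant. WT differed from the mutants in more than these genes: LEU2, a leucine synthesis gene used as a strain marker, lay between 0.828 and 465.5 TPM in the mutant libraries and between 3979 and 5907 TPM in the WT libraries. Markers of mating type a summed to between 218 and 492 TPM in starvation and to between 2794 and 4085 TPM in log phase, those of mating type alpha to at most 22.0 TPM and those of sporulation to at most 35.4 TPM in any library. In a principal component analysis of all genes, hsh49::Q24P starvation replicate 2 stood apart from its group on the second component (22.88, against 1.14 and 1.84). The mud1D starvation libraries were spread along it (3.38, 12.93 and 22.77), with replicate 3 at the end but not apart. Counts are also given without hsh49::Q24P starvation replicate 2 and mud1D starvation replicate 3. Starved WT lay at -44.57, -44.58 and -40.49, and every starved mutant library between 1.14 and 22.88.

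The promoters of these genes carry shared elements, shown here because most members, though not all, were lower in starvation. Each sequence runs 5′ to 3′ on the coding strand from 250 bases before the annotated gene start, here the start codon, to 50 bases after it, in the R64 genome of RefSeq, which may not be the build the authors used. Capitals mark every match, on either strand, of PAC (GATGAG, or CTCATC on the other strand) and of RRPE (AAAAATTTT, or AAAATTTTT on the other strand). NOP1, NOB1 and RLP7 were chosen as the genes of their classes with the highest mean TPM and both elements. NSR1 and UTP22 were chosen after their values were seen.
NOP1 (box C/D methyltransferase, chrIV:427114-427413, plus strand): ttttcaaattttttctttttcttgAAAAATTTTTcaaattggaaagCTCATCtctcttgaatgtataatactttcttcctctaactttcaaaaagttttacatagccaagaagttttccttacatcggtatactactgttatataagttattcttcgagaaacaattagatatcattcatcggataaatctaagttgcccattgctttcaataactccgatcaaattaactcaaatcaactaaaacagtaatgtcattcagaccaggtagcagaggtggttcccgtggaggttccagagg
NOB1 (nuclease of the small-subunit precursor, chrXV:431577-431876, minus strand): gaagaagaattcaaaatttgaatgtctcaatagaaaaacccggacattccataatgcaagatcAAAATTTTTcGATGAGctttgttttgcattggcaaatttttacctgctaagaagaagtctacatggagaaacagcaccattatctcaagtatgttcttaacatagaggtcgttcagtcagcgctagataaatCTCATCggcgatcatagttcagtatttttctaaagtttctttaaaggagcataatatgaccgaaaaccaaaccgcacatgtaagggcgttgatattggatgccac
RLP7 (large-subunit assembly factor, chrXIV:627093-627392, minus strand): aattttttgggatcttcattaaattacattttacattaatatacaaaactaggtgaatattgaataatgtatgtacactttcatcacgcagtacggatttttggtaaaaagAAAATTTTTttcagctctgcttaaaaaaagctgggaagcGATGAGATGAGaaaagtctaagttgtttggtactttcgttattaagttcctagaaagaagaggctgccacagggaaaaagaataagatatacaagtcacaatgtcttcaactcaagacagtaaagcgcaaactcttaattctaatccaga
NSR1 (nucleolin, chrVII:807607-807906, minus strand): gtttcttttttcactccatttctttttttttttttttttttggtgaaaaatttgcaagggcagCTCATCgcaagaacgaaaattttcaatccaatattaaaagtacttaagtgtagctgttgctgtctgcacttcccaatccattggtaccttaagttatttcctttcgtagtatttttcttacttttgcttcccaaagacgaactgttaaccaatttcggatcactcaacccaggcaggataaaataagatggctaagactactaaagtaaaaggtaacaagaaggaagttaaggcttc
UTP22 (UtpC subunit, chrVII:662108-662407, plus strand): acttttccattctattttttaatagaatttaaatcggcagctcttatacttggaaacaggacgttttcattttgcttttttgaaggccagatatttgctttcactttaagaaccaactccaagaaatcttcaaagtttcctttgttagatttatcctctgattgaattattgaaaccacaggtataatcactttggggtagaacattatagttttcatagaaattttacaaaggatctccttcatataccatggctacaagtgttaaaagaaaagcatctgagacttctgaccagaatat
In NOP1 a forward and a reverse RRPE overlap in one run, at -226 and -225 from the start, and PAC lies downstream at -204. RLP7 holds a pair of PAC matches that overlap, at -100 and -95, downstream of an RRPE at -139. NOB1 has an RRPE at -187 with a PAC at -177 beside it and a second PAC at -55. NSR1 has a single PAC at -187, and UTP22 has neither element in this window.

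Among the 60 promoters, 56 held PAC (93.3%), against 1222 of 6001 promoters of the same length in the genome (20.4%). RRPE was found in 38 of the 60 (63.3%), against 419 of all 6001 (6.98%), and both elements in 35 (58.3%), against 215 of all (3.58%). A list of 82 further ribosome biogenesis genes was alike, with PAC in 72 (87.8%) and RRPE in 54 (65.9%). Genes of cytosolic ribosomal proteins had PAC in 15 of 137 promoters (10.9%) and RRPE in 6 (4.38%). The positions were also uneven: the 92 PAC matches of the members centred on -116 with a middle range of -137.5 to -92, and their 49 RRPE matches centred on -144.5 with a middle range of -164.5 to -128.5, upstream of PAC. In all other promoters PAC centred on -109 with a wider middle range, -179 to -55, and RRPE centred on -138.5 with a middle range of -178 to -109, so that the RRPE matches of both sets lay at similar distances. A match of letters describes the sequence and does not show binding.

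**Figure D1:**
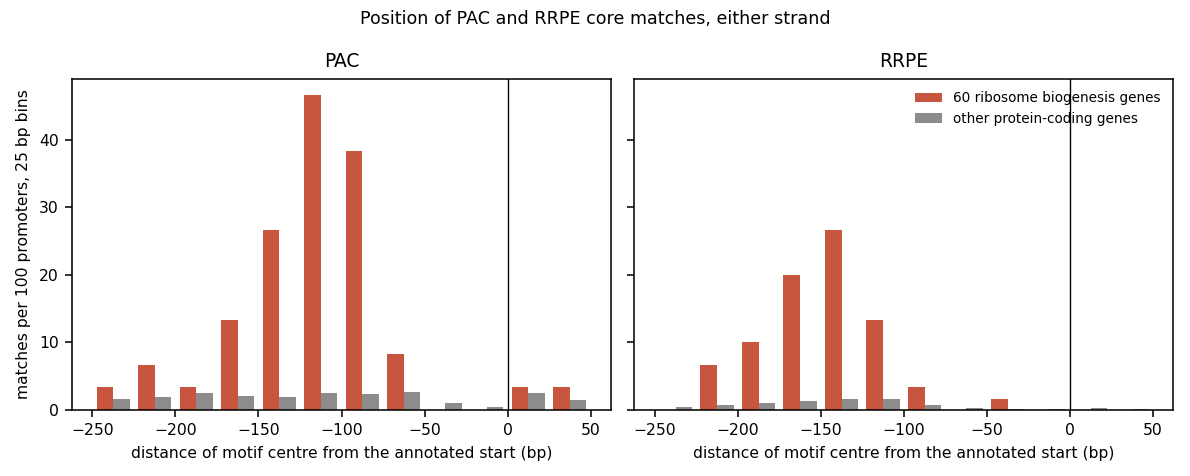
Positions of PAC and RRPE letter matches in the promoters of the 60 members and of all other genes, as the distance in bases from the annotated gene start (x axis) against the matches per 100 promoters in bins of 25 bp (y axis). Matches of the members gather at -116 (PAC) and -144.5 (RRPE), while PAC matches of other genes spread over the whole window and RRPE matches of other genes centre on -138.5.

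In starvation the 60 genes together took 3503, 3344 and 3317 TPM in nam8D, 2274, 2847 and 2046 TPM in hsh49::Q24P, 2045, 2718 and 3109 TPM in mud1D, and 3415, 3241 and 3711 TPM in WT (summed TPM of each library). In log phase they took 5886 ± 228 TPM in nam8D, 6864 ± 337 TPM in hsh49::Q24P, 6350 ± 843 TPM in mud1D and 6548 ± 307 TPM in WT (mean ± SD of the summed TPM, n = 3 each). Each of the 12 starvation sums was lower than each log-phase sum. Within starvation the nam8D sums lay inside the range of the WT sums, and all of them were above every hsh49::Q24P and mud1D sum. Averaged over all 24 libraries the single genes ranged from 15.2 TPM for RRP36, a small-subunit factor, to 349 TPM for NOP1.

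**Figure D2:**
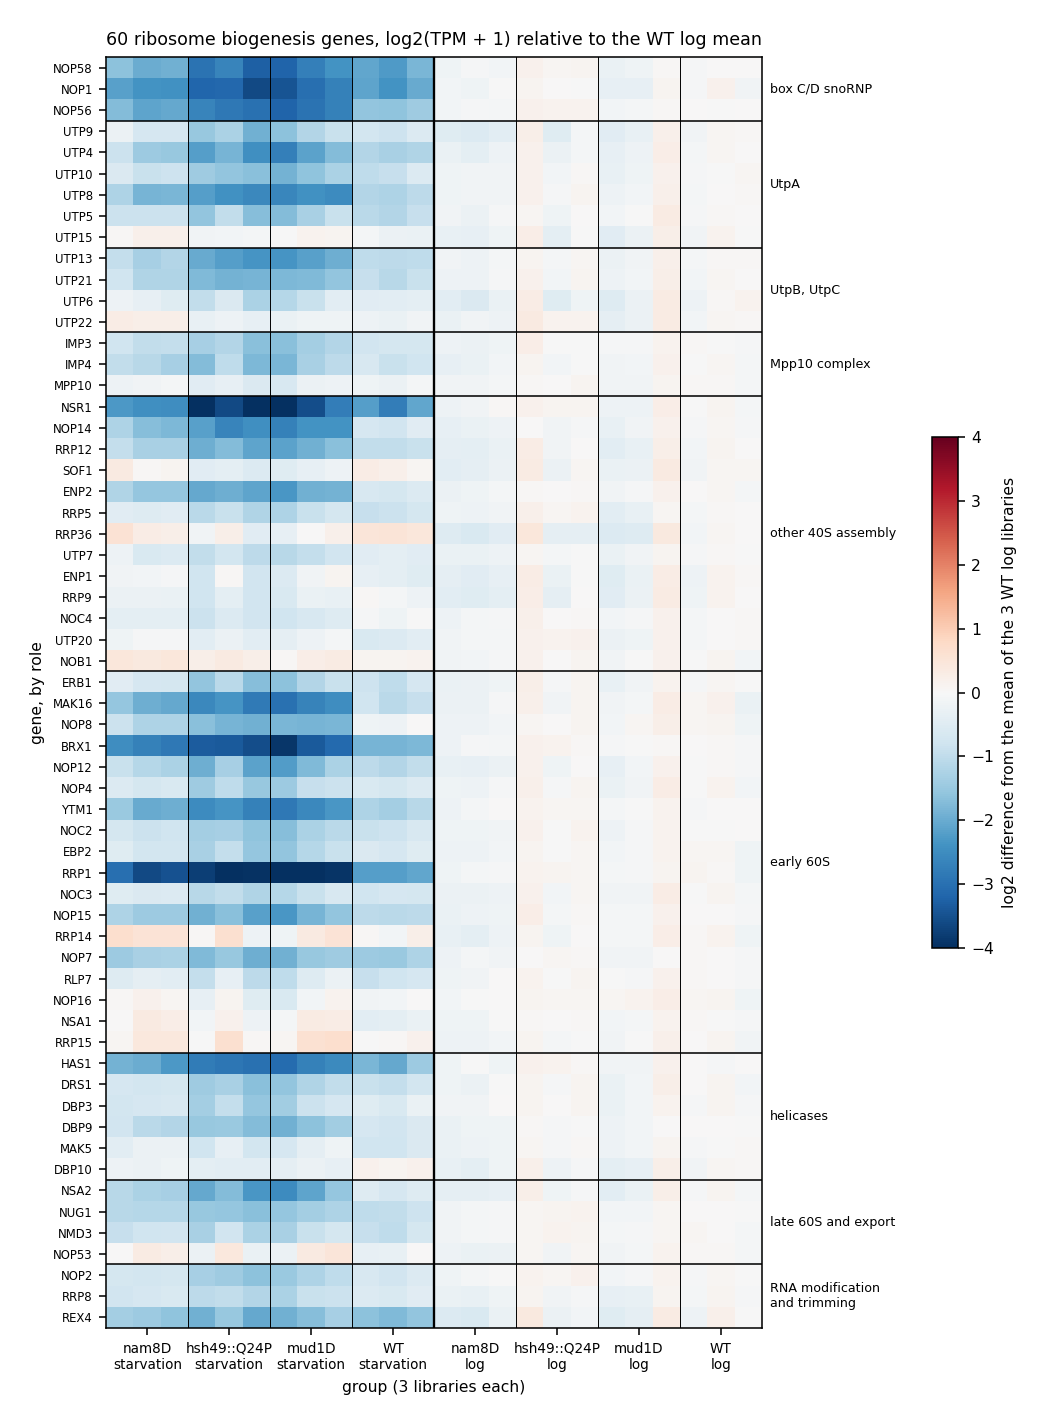
Heat map of the 60 members (rows, by role) in the 24 libraries (columns, starvation then log phase, with nam8D, hsh49::Q24P, mud1D and WT in each), coloured by log2(TPM + 1) minus the mean of WT in log phase, on a scale that saturates at 4 in either direction. Differences in starvation are most negative in hsh49::Q24P and mud1D, while on this scale NOB1, RRP15 and RRP14 were not lower in starvation and passed at a higher level in nam8D (0.54, 0.47 and 0.89). With spike-in scaling none of these passed higher in nam8D, and NOB1 and RRP15 passed lower.

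A part of these genes was lower in starvation than in log phase in every genotype. On the deposited TPM scale the counts were larger in hsh49::Q24P and mud1D than in nam8D and WT. The number changed to a lower level was 16 of 60 in nam8D, 40 in hsh49::Q24P, 35 in mud1D and 16 in WT. The matching share of all genes was 10.3% in nam8D, 14.1% in hsh49::Q24P, 14.9% in mud1D and 9.01% in WT. At any size 40 members passed at a lower level in nam8D (24.7% of all genes), 53 in hsh49::Q24P (28.2%), 47 in mud1D (28.7%) and 44 in WT (22.1%). The member median was -0.614 in nam8D, -1.48 in hsh49::Q24P, -1.23 in mud1D and -0.72 in WT. The median gene stood above 0 in all of them, at 0.43 in nam8D, 0.386 in hsh49::Q24P, 0.358 in mud1D and 0.471 in WT, so that the differences are more negative relative to it. The counts depend on that scaling. With each library centred on its median gene 32 members were changed to a lower level in nam8D and 41 in WT, and with libraries scaled to their spike-in RNAs, 46 in nam8D and 32 in WT. The counts of hsh49::Q24P and mud1D under these scalings are not given here, so the order of the counts is shown for the deposited scale alone. After centring the member median was -1.03 in nam8D, -1.82 in hsh49::Q24P, -1.57 in mud1D and -1.2 in WT. Scaling to the spike-in RNAs moved the median gene to -0.547 in nam8D, -0.631 in hsh49::Q24P, -0.426 in mud1D and 0.199 in WT, and the member median to -1.68 in nam8D, -2.58 in hsh49::Q24P, -2.10 in mud1D and -1.01 in WT. These RNAs summed to between 13124 and 22815 TPM in starvation and to between 8033 and 12571 TPM in log phase, the amounts added are not given in the sources used here, and their part in the result was not tested.

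**Figure D3:**
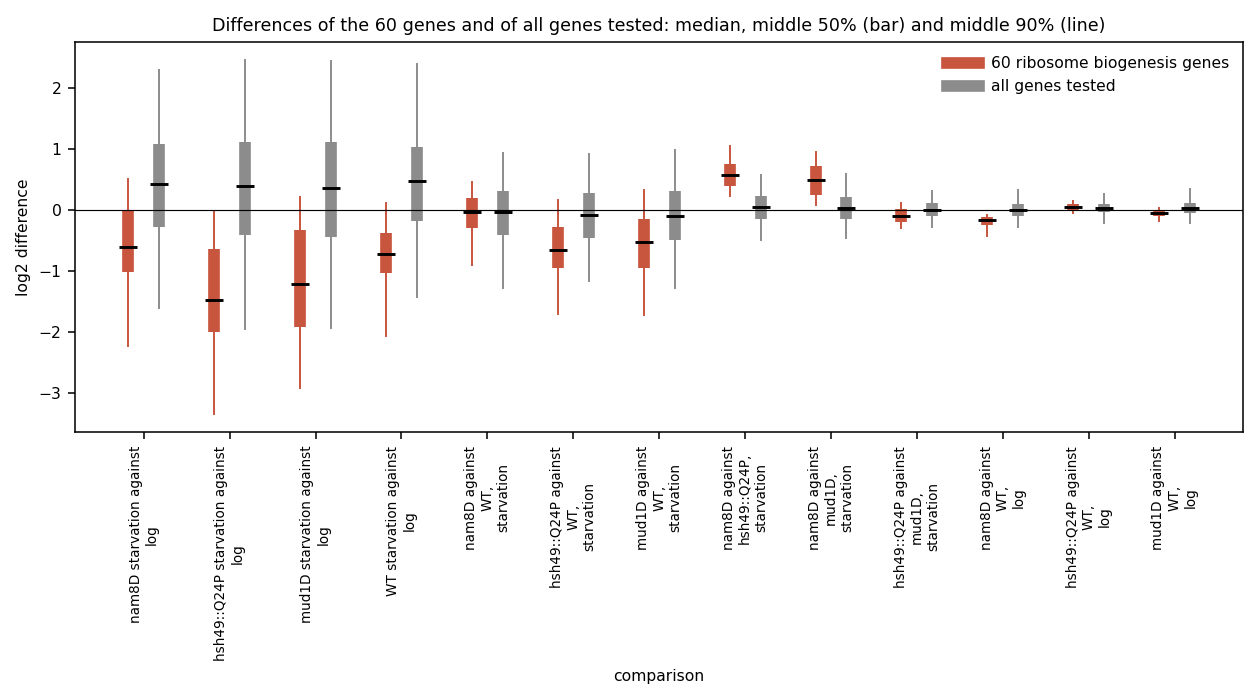
Median (black line), middle 50% (bar) and middle 90% (thin line) of the log2 differences (y axis) of the 60 members and of all 6449 genes tested, for 13 comparisons (x axis). In the 4 starvation responses the members lie below all genes, with medians of -0.614 in nam8D, -1.48 in hsh49::Q24P, -1.23 in mud1D and -0.72 in WT.

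The same genes recurred among those that fell, meaning changed to a lower level. All 16 members that fell in nam8D were among the 40 of hsh49::Q24P (40% of those) and among the 35 of mud1D (45.7%), and the 16 of WT were contained in the same way. All 35 of mud1D were among the 40 of hsh49::Q24P, 87.5% of that list, while nam8D and WT shared 12, which is 75% of each. Those 12 genes fell by at least 1 in all 4 genotypes: NOP1, NOP56 and NOP58, which form the protein core of the methylation particles, NSR1, UTP8 and UTP13 of the small-subunit pathway, and NOP7, NOP15, RRP1, BRX1, YTM1 and HAS1 of the large-subunit pathway. Another 20 of the 60 were not changed in any of the 4 genotypes, among them the small-subunit factors NOB1, UTP15, UTP22, MPP10, RRP9 and ENP1 and the large-subunit factors RRP14, RRP15, NOP16, NSA1 and RLP7. Shares of all genes with these overlaps are not given here, so the overlaps alone do not set the members apart.

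NSR1 (YGR159C), the yeast nucleolin, fell most of all members in WT. It stood at 98.4, 67.3 and 108 TPM in the 3 starved WT libraries and at 449, 496 and 433 TPM in log phase (-2.34 ± 0.29 SE, limma adjusted p = 3.34e-07). In hsh49::Q24P its level was 27.5, 36.3 and 18.1 TPM in starvation and 517, 499 and 498 TPM in log phase, a difference of -4.21 on the log2 scale. NOP1 (YDL014W), the fibrillarin that methylates rRNA, stood at 137, 119 and 114 TPM in starved nam8D and 576, 549 and 617 TPM in growing nam8D, and at 143, 117 and 152 TPM in starved WT and 603, 707 and 563 TPM in log phase. Its starvation responses were -2.23 ± 0.164 SE in nam8D and -2.18 ± 0.164 SE in WT. RRP1 (YDR087C), an early large-subunit factor, stood at 24.2, 24.3 and 26.5 TPM in starved WT and 123, 119 and 102 TPM in log phase (-2.15 ± 0.118 SE). In all of these genes the starvation and log libraries of a genotype did not overlap.

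At the other end NOB1, RRP15 and RRP14 were the members least like the rest, with Pearson r of -0.537, -0.478 and -0.304 against the mean of the other members over the 24 libraries, where the median member reached 0.971. These r values are a description, since the libraries share their groups. NOB1 (YOR056C), the nuclease that cuts the 3′ end of 18S rRNA in the cytoplasm, stood at 110.3, 104 and 109.7 TPM in starved nam8D and 71.7, 73.9 and 76.7 TPM in log phase. It passed at a higher level in nam8D (0.54 ± 0.08 SE), hsh49::Q24P (0.18 ± 0.08 SE) and mud1D (0.20 ± 0.08 SE). In WT it stood at 85.1, 85.9 and 87 TPM in starvation and 79, 86.7 and 73.4 TPM in log phase and did not pass. RRP15 (YPR143W), a factor of the early large subunit, stood at 128, 163 and 161 TPM in starved nam8D and 105, 106 and 112 TPM in log phase (0.47 ± 0.156 SE). RRP14 (YKL082C), another early factor, stood at 179, 164 and 165 TPM in starved nam8D and 91.3, 85.2 and 96.3 TPM in log phase (0.89 ± 0.182 SE), and did not pass in the other genotypes.

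In nam8D 9 members passed at a higher level in starvation: NOP53, NSA1, NOB1, UTP15, UTP22, RRP14, RRP15, RRP36 and SOF1, beside 55.4% of all genes. In hsh49::Q24P 1 did (NOB1), in mud1D 2 (NOB1 and RRP15) and in WT none (none at an unadjusted p under 0.05), beside 53.3% of all genes in hsh49::Q24P, 52.2% in mud1D and 58.7% in WT. The rise of these members is tied to the scaling: the count of 9 in nam8D became 1 after median centring and none after trimmed mean or spike-in scaling, and in hsh49::Q24P and mud1D none passed higher under any of the 3. With spike-in scaling 58 members passed at a lower level in nam8D, among them 7 of the 9 (all but RRP14 and RRP36), and NOB1 passed at a lower level in hsh49::Q24P and mud1D as well. Under that scaling the median gene itself stood at -0.547 in nam8D. Single libraries moved the smaller counts: the 1 in hsh49::Q24P became none without log replicate 2 or 3 or starvation replicate 2 or 3, and the 2 in mud1D became none without log replicate 1 or starvation replicate 2 or 3, 1 without log replicate 2, and 5 without log replicate 3 or starvation replicate 1. UTP22 (YGR090W), a subunit of UtpC, had 24.1, 23.2 and 23.2 TPM in starved nam8D and 15.8, 17.3 and 16.6 TPM in log phase (0.48 ± 0.118 SE). The members with the most positive differences in WT, RRP36 (0.48 ± 0.236 SE), SOF1 (0.20 ± 0.152 SE) and DBP10 (0.16 ± 0.118 SE), did not pass there.

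By role, the box C/D proteins were the most uniform, with 3 of 3 changed to a lower level in each of the 4 genotypes. Of the 6 UtpA genes, whose complex binds the start of the rRNA precursor, 1 fell by at least 1 in nam8D, 5 in hsh49::Q24P, 5 in mud1D and 3 in WT. Of 18 early large-subunit genes 6 fell in nam8D, 13 in hsh49::Q24P, 12 in mud1D and 6 in WT. The Mpp10 complex, which works with the U3 snoRNA, had 0 of 3 in nam8D, 2 of 3 in hsh49::Q24P, 2 of 3 in mud1D and 0 of 3 in WT. Among 6 RNA helicases 1 fell by at least 1 in nam8D, 4 in hsh49::Q24P, 3 in mud1D and 1 in WT.

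**Figure D4:**
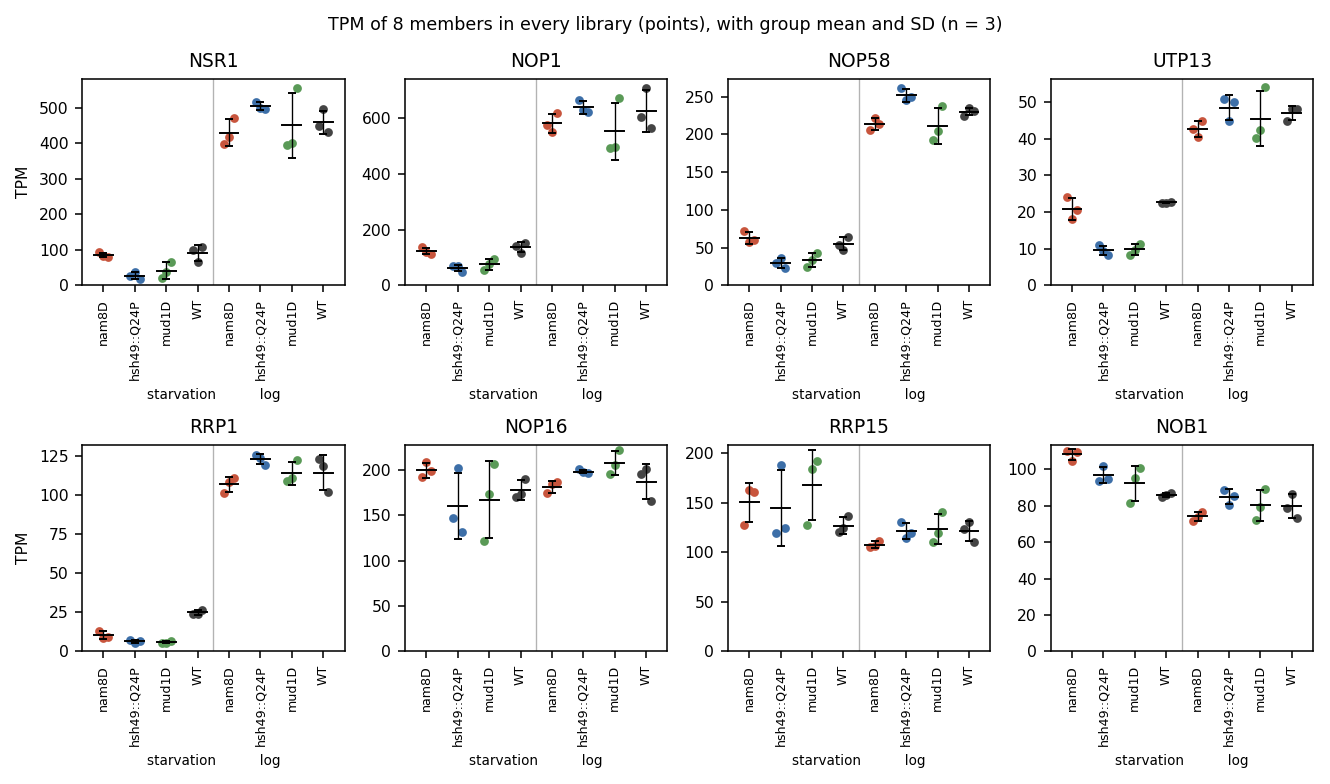
TPM of 8 members in each library (points, y axis), with the mean and SD of each group (lines, n = 3), in starvation and log phase for nam8D, hsh49::Q24P, mud1D and WT. For NSR1, NOP1, NOP58 and UTP13 the starved nam8D libraries lie above the starved hsh49::Q24P and mud1D libraries, while NOB1 and RRP15 in WT did not pass between growth states.

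In the fit of all groups, most members passed at a higher level in starved nam8D than in starved hsh49::Q24P and in starved mud1D. Other fits and scalings moved these counts, as given below. Against hsh49::Q24P, 44 of 60 members passed at a higher level and none at a lower level (none at an unadjusted p under 0.05 either), beside 16% of all genes passing higher and 8.47% lower. Against mud1D 38 passed higher and none lower (none unadjusted), beside 15.1% of all genes passing higher and 8.54% lower. The member medians were 0.575 over hsh49::Q24P and 0.49 over mud1D, where the median gene stood at 0.0377 over hsh49::Q24P and 0.0234 over mud1D. Both comparisons use the same nam8D libraries, so they are not independent. Each genotype was 1 strain, so a mutation cannot be told apart from other strain differences here either. In 42 of the 60 genes all 3 starved nam8D libraries lay above all 6 libraries of the other mutants, a pattern found in 14.4% of all genes. For 35 of the 60, and 6.53% of all genes, both the nam8D and the WT libraries lay above all 6.

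Most of these differences were under a doubling. Changed by at least 1 were 4 members over hsh49::Q24P (NOP58, NSR1, UTP9 and UTP13), beside 0.186% of all genes, and 2 over mud1D (NSR1 and UTP13), beside 0.388%. The calls rest on the spread pooled over all 8 groups, which was unequal. The median SD over members on the log2 scale was 0.0662 in nam8D log phase, 0.133 in nam8D starvation, 0.21 in hsh49::Q24P starvation and 0.27 in mud1D starvation. The part of this in the calls was not tested. When only the groups compared were fitted, no member passed over hsh49::Q24P, with 48 at an unadjusted p under 0.05, and 1 passed over mud1D (UTP13), with 41 unadjusted. In those fits without a block 2 genes of the whole table passed at a higher level over hsh49::Q24P and 16 over mud1D. Shares of all genes at an unadjusted p under 0.05 in those fits are not given here. Same-numbered libraries of starved nam8D and hsh49::Q24P deviated together only weakly (r of 0.144, 0.141 and 0.201 over genes). Of 13 comparisons this was the 1 with every pair above 0.1, where single pairs ranged from -0.671 to 0.463. A fit of those groups with the replicate number as a block was chosen after these r were seen. In it 14 members passed and 4 changed over hsh49::Q24P, beside 2.33% of all genes passing higher. With spike-in scaling 9 members passed over hsh49::Q24P and none over mud1D (20 at an unadjusted p under 0.05), with member medians of 0.563 over hsh49::Q24P and 0.281 over mud1D, beside median genes at 0.0323 over hsh49::Q24P and -0.169 over mud1D. Another fit left out hsh49::Q24P replicate 2 and mud1D replicate 3, which lay on the side of starved nam8D in the principal component analysis. They had the highest summed TPM of the members in their groups, 2847 and 3109 TPM. Leaving them out thus removes the libraries nearest to nam8D in that sum. Without both, 55 members passed and 7 changed over hsh49::Q24P, and 49 passed and 6 changed over mud1D. Shares of all genes in that fit are not given here. Single libraries moved the changed counts too: over hsh49::Q24P 7 without hsh49::Q24P replicate 2 and 1 without hsh49::Q24P replicate 3 or nam8D replicate 1, and over mud1D 6 without mud1D replicate 3, none without mud1D replicate 1, 1 without nam8D replicate 1, 4 without nam8D replicate 2 and 5 without nam8D replicate 3.

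**Figure D5:**
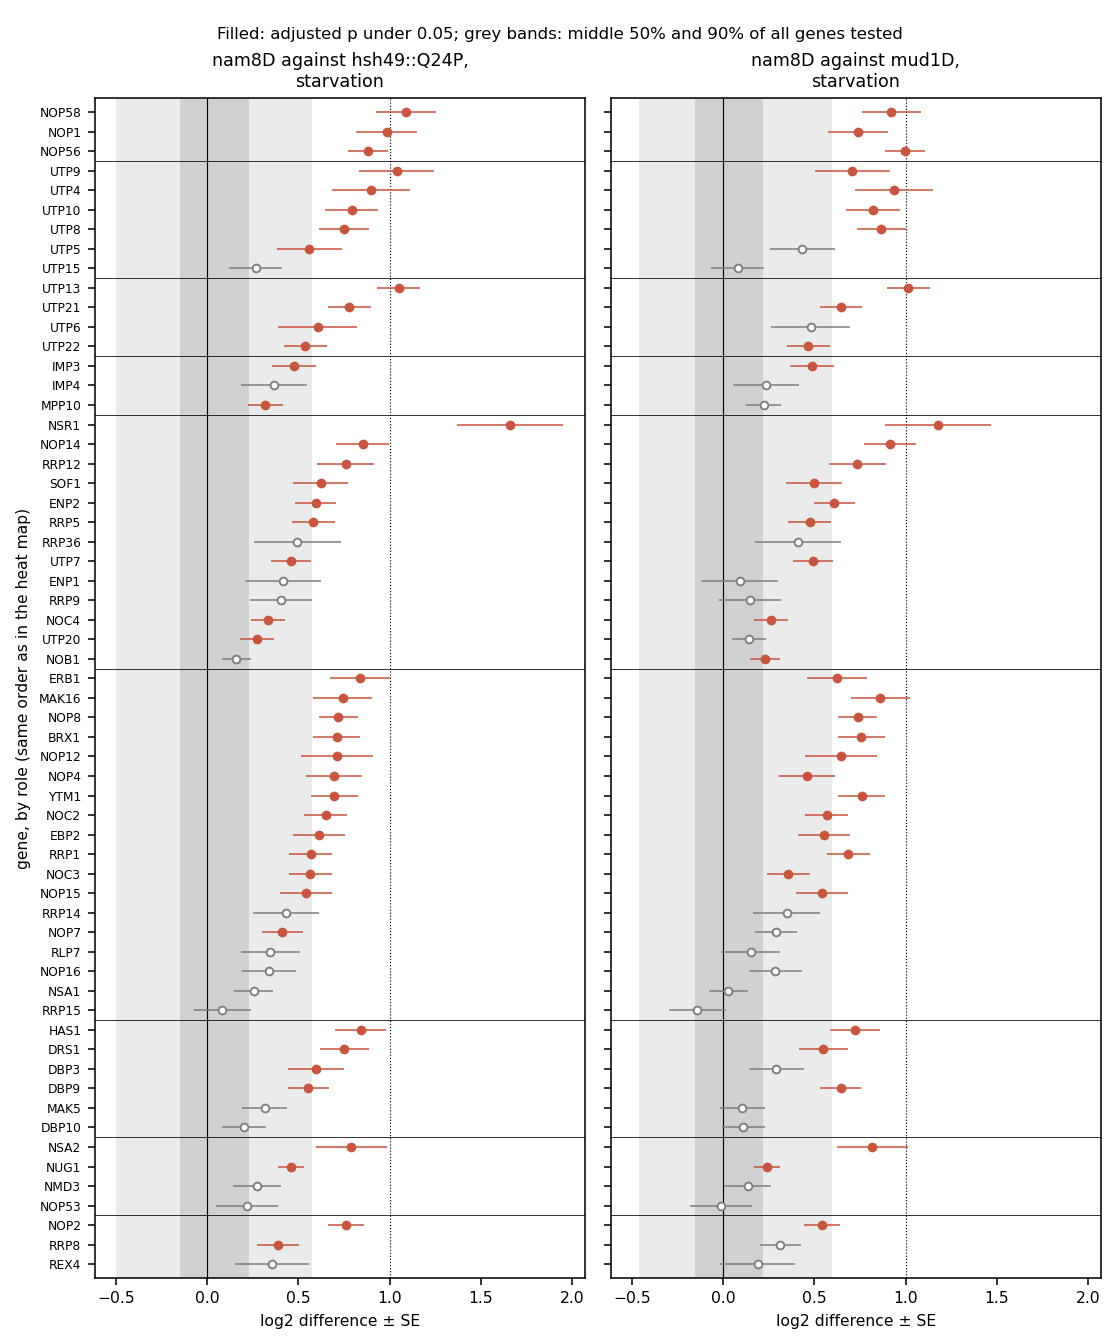
log2 differences (x axis) of starved nam8D over hsh49::Q24P and over mud1D for each of the 60 members (rows, by role), with SE bars, filled points for an adjusted p under 0.05, grey bands for the middle 50% and 90% of all genes and a dotted line at 1. All members over hsh49::Q24P lie above 0, with 44 filled, and 38 are filled over mud1D.

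The proteins of the methylation particles had the largest class medians between the starved mutants. All 3 box C/D members passed in both comparisons, with medians of 0.982 over hsh49::Q24P and 0.922 over mud1D. NOP58 (YOR310C), a core protein of these particles, had 72.4, 57.7 and 59.5 TPM in starved nam8D, 29, 36.3 and 23.2 TPM in hsh49::Q24P and 24.1, 33.9 and 42.7 TPM in mud1D. Every nam8D library was above every library of the other mutants, with differences of 1.09 ± 0.163 SE over hsh49::Q24P (adjusted p = 0.000265) and 0.92 ± 0.163 SE over mud1D (adjusted p = 0.000646). Its partner NOP56 (YLR197W) had 101, 77.9 and 81.2 TPM in nam8D, 53.2, 45.2 and 41.2 TPM in hsh49::Q24P and 35.8, 42.3 and 51.1 TPM in mud1D, again without overlap (0.88 ± 0.11 SE over hsh49::Q24P and 1.00 ± 0.11 SE over mud1D, the last just under the change called). NOP1 had 137, 119 and 114 TPM in nam8D, 67.9, 69.6 and 49.5 TPM in hsh49::Q24P and 55.4, 75.4 and 94 TPM in mud1D (0.98 ± 0.164 SE over hsh49::Q24P and 0.74 ± 0.164 SE over mud1D), and starved WT held 143, 117 and 152 TPM.

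In the small-subunit processome the difference ran through most complexes. Of the 6 UtpA genes 5 passed over hsh49::Q24P and 4 over mud1D, with medians of 0.769 over hsh49::Q24P and 0.765 over mud1D. UTP9 (YHR196W) had 34.8, 25.5 and 25.5 TPM in nam8D, 13.9, 16.6 and 10.1 TPM in hsh49::Q24P and 12.6, 17.9 and 21.6 TPM in mud1D, with differences of 1.04 ± 0.207 SE over hsh49::Q24P and 0.71 ± 0.207 SE over mud1D. It was the member whose starvation response in nam8D came nearest to 0 among those changed between the mutants: its log-phase level was 29.4, 27.8 and 30.6 TPM (-0.05 ± 0.207 SE, adjusted p = 0.844). UTP4 (YDR324C) had 24.3, 15.8 and 15.3 TPM in nam8D, 8.99, 11.8 and 7.4 TPM in hsh49::Q24P and 5.92, 9.41 and 12.7 TPM in mud1D. UTP5 (YDR398W), with the highest mean TPM of the complex, had 33.5, 33.5 and 34 TPM in nam8D, 20.2, 31 and 18.2 TPM in hsh49::Q24P and 18, 24.9 and 33.3 TPM in mud1D, and passed over hsh49::Q24P but not over mud1D (adjusted p = 0.0823). In mud1D the values differed between replicates, and replicate 3 came close to nam8D.

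The UtpB and UtpC genes passed in 4 of 4 cases over hsh49::Q24P and in 3 of 4 over mud1D. UTP13 (YLR222C), a WD-repeat subunit of UtpB, had 24, 18.2 and 20.4 TPM in nam8D, 10.9, 9.45 and 8.36 TPM in hsh49::Q24P, 8.42, 9.7 and 11.4 TPM in mud1D and 22.6, 22.5 and 22.8 TPM in WT. The nam8D and WT libraries lay above all 6 of the others, with differences of 1.05 ± 0.117 SE over hsh49::Q24P (adjusted p = 1.7e-05) and 1.01 ± 0.117 SE over mud1D (adjusted p = 2.04e-05). UTP21 (YLR409C), another UtpB subunit, had 27, 20.2 and 20.1 TPM in nam8D, 13.1, 12 and 12.4 TPM in hsh49::Q24P and 13, 13.4 and 15.2 TPM in mud1D (0.78 ± 0.117 SE over hsh49::Q24P and 0.64 ± 0.117 SE over mud1D). MPP10 (YJR002W), which gives its name to the complex with Imp3 and Imp4, had 95.2, 99.8 and 102 TPM in nam8D, 78.6, 87 and 72.6 TPM in hsh49::Q24P and 70.2, 92 and 94.3 TPM in mud1D. Its difference was small, 0.32 ± 0.0943 SE over hsh49::Q24P, and it did not pass over mud1D (adjusted p = 0.0956).

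Of 13 other small-subunit genes 9 passed in each comparison. NSR1 had the largest difference of any member, with 92.7, 82.2 and 80.7 TPM in nam8D, 27.5, 36.3 and 18.1 TPM in hsh49::Q24P and 19.7, 38.1 and 66.7 TPM in mud1D. The nam8D libraries were tight and above every library of the other mutants, while the mud1D libraries differed most among themselves. Its differences were 1.66 ± 0.29 SE over hsh49::Q24P (adjusted p = 0.000751) and 1.18 ± 0.29 SE over mud1D (adjusted p = 0.00658). SOF1 (YLL011W), a U3-associated factor, had 31.9, 25.6 and 26.7 TPM in nam8D, 18, 18.6 and 16.9 TPM in hsh49::Q24P and 17.4, 19.7 and 21.6 TPM in mud1D and passed in both. RRP36 (YOR287C) had 22.8, 18.4 and 17.6 TPM in nam8D, 13.4, 17.7 and 10.4 TPM in hsh49::Q24P and 11.5, 15 and 17.3 TPM in mud1D, and passed in neither comparison. NOB1 had 110.3, 104 and 109.7 TPM in nam8D, 93.7, 102 and 94.7 TPM in hsh49::Q24P and 81.7, 95.1 and 100.5 TPM in mud1D, and passed over mud1D alone (0.23 ± 0.08 SE).

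On the large-subunit side 13 of 18 early genes passed over hsh49::Q24P and 12 over mud1D, with medians of 0.591 and 0.548. RRP1 had 13.2, 8.44 and 9.26 TPM in nam8D, 7.46, 5.67 and 6.5 TPM in hsh49::Q24P and 5.57, 5.69 and 6.54 TPM in mud1D (0.57 ± 0.118 SE over hsh49::Q24P and 0.69 ± 0.118 SE over mud1D). NOP16 (YER002W), which has the highest mean TPM of the class, had 192, 208 and 199 TPM in nam8D, 147, 202 and 132 TPM in hsh49::Q24P and 122, 174 and 206 TPM in mud1D. Replicate 2 of hsh49::Q24P and replicate 3 of mud1D were inside the nam8D range, and it passed in neither comparison. The early factors RRP15 (0.08 over hsh49::Q24P and -0.14 over mud1D) and RRP14 (0.43 and 0.35) did not pass either. Of all members only RRP15 and NOP53 (-0.01) had a difference below 0 over mud1D, and none had over hsh49::Q24P.

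Of the 6 helicases, which open RNA duplexes in the precursors, 4 passed over hsh49::Q24P and 3 over mud1D. DBP3 (YGL078C) had 109.9, 113 and 115 TPM in nam8D, 70.8, 93.9 and 61.5 TPM in hsh49::Q24P and 68.4, 99.5 and 114 TPM in mud1D, and passed over hsh49::Q24P (0.60 ± 0.153 SE) but not over mud1D (adjusted p = 0.179). DBP10 (YDL031W) had 42.8, 41.9 and 44.1 TPM in nam8D, 37.7, 37.1 and 36.8 TPM in hsh49::Q24P and 38.1, 41.7 and 39.4 TPM in mud1D and passed in neither. Its starved WT libraries, at 56.6, 53.9 and 56.2 TPM, were above all mutants. NUG1 (YER006W), a GTPase of late large-subunit assembly, had 77.1, 75.1 and 75.5 TPM in nam8D, 57.5, 56.2 and 51.5 TPM in hsh49::Q24P and 57, 65 and 71.2 TPM in mud1D (0.46 ± 0.0723 SE over hsh49::Q24P and 0.24 ± 0.0723 SE over mud1D). NOP2 (YNL061W), a methyltransferase of 25S rRNA, had 70.1, 69.4 and 71.1 TPM in nam8D, 45.2, 42.2 and 36.3 TPM in hsh49::Q24P and 40.7, 48.1 and 56.1 TPM in mud1D (0.76 ± 0.0971 SE over hsh49::Q24P and 0.54 ± 0.0971 SE over mud1D). Over all late large-subunit genes 2 of 4 passed in each comparison, and of the 3 RNA modification and trimming genes 2 passed over hsh49::Q24P and 1 over mud1D. NUG1 and NOP2 were higher in every nam8D library than in every library of the other mutants.

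The starved hsh49::Q24P and mud1D cells were not separated in these genes. No member passed between them, 3 were lower in hsh49::Q24P at an unadjusted p under 0.05 (NOP2, NSA1 and NUG1), and the median was -0.103 beside a median gene at -0.00207. Of all genes 0.434% passed lower and 0.403% higher. The replicates of both groups spread more than those of the others: the median SD over members was 0.21 in hsh49::Q24P and 0.27 in mud1D starvation on the log2 scale, against 0.133 in nam8D and 0.101 in WT starvation. Without hsh49::Q24P replicate 2, 2 members passed lower, and without mud1D replicate 1, 1 did. A missed threshold does not show equal levels.

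Against starved WT the mutants share the WT libraries, so their values stand side by side. WT also differed from all 3 mutants in LEU2, and each genotype was 1 strain. In every comparison between genotypes, also between the mutants and in both growth states, a mutation therefore cannot be told apart from other strain differences. Changed to a lower level were 1 member in nam8D (RRP1; 7.86% of all genes), 14 in hsh49::Q24P (7.41%) and 13 in mud1D (8.87%). At any size 15 passed lower in nam8D (32.2% of all genes), 44 in hsh49::Q24P (35.1%) and 38 in mud1D (37%). At a higher level 8 passed in nam8D (27.8% of all genes), 1 in hsh49::Q24P (25.1%) and 5 in mud1D (27.6%). The member median was -0.0395 in nam8D, -0.654 in hsh49::Q24P and -0.526 in mud1D. The 8 in nam8D ranged from 6 to 9 when single libraries were left out, the 1 in hsh49::Q24P became none without starvation replicate 2, and the 5 in mud1D became 2 without starvation replicate 2 or 3 or WT starvation replicate 1 or 2. In nam8D all 3 shares of the members lay below those of all genes. With spike-in scaling the nam8D count became 7 changed and 25 passing lower, with none passing higher (none in hsh49::Q24P and mud1D either), and the median -0.448 beside a median gene at -0.422. The nam8D count of 1 became 2 without WT replicate 1, 3 without WT replicate 2 and 4 without nam8D replicate 1.

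RRP1 stood apart within nam8D, with 13.2, 8.44 and 9.26 TPM in nam8D and 24.2, 24.3 and 26.5 TPM in WT (-1.22 ± 0.118 SE, adjusted p = 4.37e-08). It was lower still in the other mutants (-1.79 in hsh49::Q24P and -1.91 in mud1D). Under the change called, NOP14 (-0.95 ± 0.143 SE), NOP8 (-0.98 ± 0.106 SE), MAK16 (-0.91 ± 0.163 SE), BRX1 (-0.84 ± 0.129 SE) and ENP2 (-0.80 ± 0.112 SE) also passed at a lower level in nam8D, named after their values were seen. For NOP14, a partner of the small-subunit methyltransferase Emg1, the starved levels were 30.5, 21.8 and 20.5 TPM in nam8D, 15.4, 10.8 and 12.6 TPM in hsh49::Q24P, 10.4, 13.2 and 13.2 TPM in mud1D and 45.3, 43 and 53.1 TPM in WT. The nam8D libraries thus fell between WT and the other mutants with no overlap on either side. Higher than WT in nam8D were NSA1, NOB1, UTP15, UTP20, UTP22, RRP5, RRP14 and MAK5, by 0.58, 0.33, 0.35, 0.45, 0.47, 0.35, 0.54 and 0.42. UTP22, for example, had 24.1, 23.2 and 23.2 TPM in starved nam8D and 16.7, 16 and 17.3 TPM in starved WT, and 15.7, 16.7 and 15.3 TPM in hsh49::Q24P and 16.1, 17 and 17 TPM in mud1D.

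Ordered by their mean level in starvation, 34 of the 60 members had WT first and nam8D second, ahead of the other mutants, and 14 had nam8D first and WT second. In 9 members WT was last, and in the other 3 it was next to last, above hsh49::Q24P. Neighbours in these orders can overlap, as for NSR1 in nam8D and WT.

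In log phase no member passed in any mutant against WT, where the shares of all genes passing lower and higher were 0.14% and 0.155% in nam8D, 0.264% and 0.202% in hsh49::Q24P and 0.372% and 0.543% in mud1D. The medians were -0.169 in nam8D, 0.0532 in hsh49::Q24P and -0.0475 in mud1D, with 9 members at an unadjusted p under 0.05 in nam8D (all lower) and none in hsh49::Q24P and mud1D. All 60 members were below WT in nam8D, and in 37 of them the libraries did not overlap, beside 18% of all genes. When only the nam8D and WT log libraries were fitted, 25 members passed at a lower level. The share of all genes in that fit is not given here, so this count alone does not set the members apart. With spike-in scaling the nam8D median turned to 0.186, beside a median gene at 0.335.

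The log-phase level enters the starvation response, so the responses were compared directly as an interaction. The response of nam8D was higher than that of hsh49::Q24P in all 60 members, 47 of which passed and 13 of which differed by at least 1, beside 12.6% and 1.01% of all genes. Against mud1D it was higher in all 60, with 30 passing and 7 differing by at least 1, beside 10.8% and 0.822%. The medians were 0.839 against hsh49::Q24P and 0.663 against mud1D, and both contrasts use the nam8D libraries. NSR1 differed by 1.89 ± 0.411 SE from hsh49::Q24P (adjusted p = 0.00595), NOP1 by 1.12 ± 0.233 SE and UTP9 by 1.41 ± 0.293 SE, and from mud1D UTP9 by 1.00 ± 0.293 SE, UTP4 by 1.13 ± 0.301 SE and UTP13 by 1.09 ± 0.166 SE. NSR1 and NOP1 were not among the 7 against mud1D. With spike-in scaling no member passed in either contrast, with 47 and 16 at an unadjusted p under 0.05 and medians of 0.865 and 0.463. Against hsh49::Q24P the changed count was 22 without hsh49::Q24P log replicate 2, 21 without hsh49::Q24P starvation replicate 2 and 20 without nam8D starvation replicate 3. Against mud1D it was none without mud1D log replicate 3, mud1D starvation replicate 1 or nam8D starvation replicate 1 (19 passing in the last case), and 13 without mud1D starvation replicate 3.

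Grouped by promoter elements, the 35 members with PAC and RRPE had medians of 0.70 over hsh49::Q24P and 0.57 over mud1D in starved nam8D, and -0.82 in the WT starvation response. The 21 with PAC alone had 0.48, 0.41 and -0.64. The 3 with RRPE alone (UTP15, NOP53 and NSA1) had 0.26, 0.03 and -0.20, and UTP22, with neither, 0.54, 0.47 and -0.21. NOB1, whose promoter holds both elements, was among the members that did not fall, and NSR1, with a single PAC, fell most in WT. By level, the 20 members with the highest mean TPM had 0.50 over hsh49::Q24P and 0.32 over mud1D, and the other 40 had 0.588 and 0.496.

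The regulators of these genes showed a mixed picture at the RNA level, which does not measure their activity. They were tested under the main scaling alone. There 55.4% of all genes passed higher in the starvation response of nam8D, 53.3% in hsh49::Q24P, 52.2% in mud1D and 58.7% in WT. With spike-in scaling the median gene moved from 0.43 to -0.547 in nam8D, and the rises below were not tested under it. TOD6, a repressor that binds PAC, had 44.9, 43.7 and 42.9 TPM in starved nam8D, 28.7, 30.9 and 26.7 TPM in hsh49::Q24P, 26.1, 32.5 and 32.1 TPM in mud1D and 29.0, 27.0 and 36.3 TPM in WT. It was higher in nam8D than in hsh49::Q24P (0.59 ± 0.143 SE, adjusted p = 0.00588) and mud1D (0.53 ± 0.143 SE, adjusted p = 0.0119). Its relative DOT6 was higher than in starved WT in all 3 mutants, by 1.2 in nam8D, 0.96 in hsh49::Q24P and 1.32 in mud1D, and did not pass between nam8D and the other mutants. STB3, which binds RRPE, and SFP1, an activator of Ribi genes, were higher in starvation in the mutants, by 0.97 to 1.13 (STB3) and 1.10 to 1.21 (SFP1), and in WT, by 1.05 (STB3) and 1.24 (SFP1) beside a median gene at 0.471, and did not pass between nam8D and the other mutants. In the starvation response DOT6 was higher in nam8D (0.65), hsh49::Q24P (0.55) and mud1D (0.89) and lower in WT (-0.29). TOD6 was higher in starved nam8D (0.94) and did not pass in hsh49::Q24P (0.01), mud1D (0.25) or WT (0.20), and its response in nam8D differed from that in hsh49::Q24P by 0.93 (adjusted p = 0.00596) and from that in mud1D by 0.70 (adjusted p = 0.0285). The kinase gene SCH9 (1.29) and the ribosomal protein regulators IFH1 (1.11) and CRF1 (4.15) were also higher in starved WT. So were FHL1 (0.64), MRS6 (0.56), KOG1 (0.57), TOR1 (0.47) and RAP1 (0.39), beside the median gene at 0.471. In the responses of all 3 mutants these passed at a higher level too, except TOR1, which passed in none of them. Between nam8D and hsh49::Q24P in starvation CRF1 was lower (-0.77) and MRS6 higher (0.18), and the other 9 did not pass.

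Further lists of the translation machinery were tested under the main scaling alone, where 16% of all genes passed higher and 8.47% lower over hsh49::Q24P, and 15.1% higher and 8.54% lower over mud1D. Of 82 further biogenesis genes 49 passed higher in nam8D over hsh49::Q24P and 43 over mud1D, with SPB1, a methyltransferase of 25S rRNA, at 0.93 and RIX1, a large-subunit factor, at 0.86 over mud1D. Of 17 RNA polymerase I genes 9 passed higher in each, with RPA43 at 1.17 and RPA34 at 0.79 over mud1D. Cytosolic ribosomal protein genes passed higher in 105 of 137 cases over hsh49::Q24P and 117 over mud1D. Among these RPS22A (1.28) and RPL7B (1.04) have close copies, so the split of reads between copies is uncertain. Mitochondrial ribosomal protein genes were lower, with 43 of 66 passing lower over hsh49::Q24P, 39 over mud1D and none higher (medians -0.283 and -0.267).

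The 10 genes outside the 60 whose profile over the 24 libraries was most like the mean of the members were MAK21, TIF4631, RPA34, KRE33, RIX7, NOP9, UTP23, RTT10, RPA135 and PUS4, with Pearson r from 0.989 to 0.995 among 5093 genes. All of these libraries share the contrast between growth states, so r describes that shared course. In the annotation the 60 genes lie on 13 of the 16 chromosomes, at most 9 on one, and none has an intron or overlaps another annotated gene. Their lengths run from 552 to 7482 bp.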

How the data were processed

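Per the labels, RNA was extracted with hot acid phenol, treated with DNase, and libraries were made with a directional kit from poly(A) RNA of 1 µg input. Tools listed in the submitters' processing notes are STAR 2.7.9a, Trimmomatic 0.39 and FastQC 0.11.9. The authors deposited TPM, summing to between 999639 and 999881 in each library. They hold no counts, so no counting interval or floor is given. Build, annotation and strand counted are not given in the sources used here. Of 8009 lines with values 7121 name a gene, and 92 spike-in RNAs and other features were not tested.

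Genes with at least 1 TPM in at least 3 libraries (6449) were fitted in R 4.3.3 by limma 3.58.1 on log2(TPM + 1), with a mean for each of 8 groups, an intensity trend and 16 residual degrees of freedom, in 15 comparisons. A fold change on this scale understates the change of low genes. P-values were adjusted by Benjamini-Hochberg over genes in each comparison. The pipeline was tested on simulated data. Promoters came from the RefSeq R64 genome, matched by identifier for all 60 genes. Tables and figures used Python 3.11.15, numpy 2.4.6, pandas 2.3.3 and matplotlib 3.10.9.

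The members and lists were chosen with earlier results of these data known. Named were, by a rule, the member with the highest mean TPM in each role class, the 3 lowest and 3 highest differences in WT starvation, the 5 largest differences of nam8D over each other mutant in starvation, the 3 members least like the rest, and all regulators; others are said to have been named after their values were seen or are named within a count. The alternatives were pseudocounts of 0.1 and 5, no filter, a minimum of 10 TPM, median, trimmed mean and spike-in scaling, fits with a replicate block or restricted to the groups compared, and leaving out each library. Chosen after seeing the data were a fit without hsh49::Q24P starvation replicate 2 and mud1D starvation replicate 3, and a fit of starved nam8D and hsh49::Q24P alone with a replicate block, since their same-numbered libraries deviated together (r of deviations from the group means over genes 0.144, 0.141 and 0.201).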

Additional observations from a re-analysis of the deposited data

Results flagged for a closer look

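The starvation response of nam8D was tested against those of the other mutants, and this test of the difference itself set the following results apart. Against hsh49::Q24P 47 of the 60 members passed in limma and 13 of them differed by at least 1 on the log2 scale, beside 12.6% and 1.01% of all genes. Among these were NSR1 (1.89), UTP9 (1.41), NOP58 (1.33), UTP13 (1.23), UTP4 (1.15), NOP1 (1.12), NOP56 (1.11) and SOF1 (1.01). Against mud1D 30 passed and 7 differed by at least 1, beside 10.8% and 0.822% of all genes, with UTP4 at 1.13, UTP13 at 1.09, NOP56 at 1.03 and UTP9 at 1.00. Both contrasts use the same nam8D libraries. With spike-in scaling no member passed in either. The count of 7 against mud1D ranged from 0 to 13 when single libraries were left out.

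Spike-in RNAs, which enter the report's tests only as an alternative scaling, were present in every library. Their summed level was highest, at 22815 TPM, in a starved library of hsh49::Q24P and lowest, at 8033 TPM, in a log-phase library of the same genotype. The labels do not mention them.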

How the results depend on the processing

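Counts of the 60 members that answer a comparison are given here under other settings where they moved by more than 1.5 times, and counts passing in the less frequent direction by their ranges. Shares of all genes under these settings are not listed here, so the counts alone do not set the members apart from other genes. Median centring gave 41 changed lower in the WT starvation response and 32 in that of nam8D, 2 changed higher in starved nam8D over hsh49::Q24P, 1 over mud1D and 3 in the response of nam8D against that of mud1D, and trimmed mean scaling gave 40, 33, 2, 1 and 3 for the same 5. Spike-in scaling gave 32 changed lower in the WT response, 46 in the nam8D response, 35 in hsh49::Q24P against starved WT, and 7 changed and 25 passing lower in nam8D against starved WT. It left 9 passing higher over hsh49::Q24P, 0 passing or changed over mud1D, and 0 passing or changed in both comparisons of responses. A pseudocount of 0.1 gave 2 changed lower in nam8D against starved WT and 4 changed higher over mud1D, and one of 5 gave 0 and 1, with 1 over hsh49::Q24P and 7 and 1 for the responses against those of hsh49::Q24P and mud1D. The fit of only the groups compared left 0 changed and 0 passing over hsh49::Q24P, 1 and 1 over mud1D, 4 changed in the response against that of mud1D, and 25 passing lower in nam8D against WT in log phase. Leaving out 1 library at a time, changed and passing counts ranged from 1 to 7 and 33 to 55 over hsh49::Q24P, 0 to 6 and 26 to 45 over mud1D, 9 to 22 and 37 to 57 for the response against that of hsh49::Q24P, 0 to 13 and 19 to 42 against that of mud1D, and 1 to 4 and 12 to 16 in nam8D against starved WT. The starvation responses ranged from 15 to 18 changed in WT, 39 to 42 in hsh49::Q24P, 15 to 20 in nam8D and 32 to 38 in mud1D. Counts passing higher ranged from 7 to 9 in the nam8D response, 0 to 1 in that of hsh49::Q24P and 0 to 5 in that of mud1D, and against starved WT from 6 to 9 in nam8D, 0 to 1 in hsh49::Q24P and 2 to 6 in mud1D. Without hsh49::Q24P starvation replicate 2 and mud1D starvation replicate 3, 7 changed over hsh49::Q24P, 6 over mud1D, and 21 and 13 in the 2 comparisons of responses, with 47 passing against mud1D. Of 13 comparisons 1, starved nam8D against hsh49::Q24P, had every same-numbered pair correlating above 0.1, and in all 11 of 39 pairs did (range -0.671 to 0.463). With a replicate block 4 members changed and 44 passed over hsh49::Q24P in the fit of all groups, as without it, and 4 changed and 14 passed in the fit of only those groups. With spike-in scaling 7 of the 9 members passing higher in the nam8D response passed lower, as did NOB1 in the responses of hsh49::Q24P and mud1D. The cause of these shifts was not tested.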
